A study of Mus musculus with 30 samples.

Results

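The opening 2 days of erythroid differentiation were followed in MEL cells that lack the mitochondrial transporter Abcb10. The comparison is between the 5 Abcb10-null libraries taken at day 2, after culture with 1.5% DMSO, and the 5 Abcb10-null libraries taken at day 0, before any treatment, which makes 10 of the 30 libraries of the series. The remaining 20 libraries are WT cells at days 0, 2 and 5 and Abcb10-null cells at day 5. MEL cells are a mouse erythroleukemia line that makes hemoglobin when DMSO is added, and all libraries came from this line grown in DMEM. The groups at both days carry the same CRISPR/Cas9 disruption of *Abcb10*, and the Abcb10-null cells are 1 clone, so what is particular to that clone is shared by both days. The labels call the libraries biological replicates, with no more detail on separate cultures, so p-values measure the spread between these libraries. Total RNA was depleted of ribosomal and globin RNA before stranded libraries were made, which limits what the globin counts can show.

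The 5 day 0 libraries held 16454936 to 20157768 counts assigned to genes, and the 5 day 2 libraries 17301441 to 19616273. Levels are given as CPM, the count per 1000000 counts of the library after TMM scaling of its size, and a count of 3 in a library (0.147 to 0.186 CPM) was taken as the floor of detection. CPM is not divided by transcript length, so levels are compared between days and not between genes. Log2 fold changes are day 2 over day 0, with the standard error (SE) and the adjusted p of edgeR's quasi-likelihood test, adjusted across every tested gene by the Benjamini-Hochberg method, and rose and fell are written only where that adjusted p was under 0.05. The *Abcb10* gene (ENSMUSG00000031974, chromosome 8, 123952459 to 123983122 on GRCm38) still gave transcripts. Its level was 70.97, 74.9, 66.4, 76.9 and 74.3 CPM in day 0 replicates 1 to 5 and 159.8, 169.8, 309, 188 and 183 CPM in day 2 replicates 1 to 5. All day 2 libraries were above all day 0 libraries, and replicate 3 stood above the other day 2 libraries (log2 fold change 1.47 ± 0.16 (SE), edgeR adjusted p = 1.50e-05). On a scaling of all 20 libraries of days 0 and 2 it was at 67.8 to 79.2 CPM in Abcb10-null and 114 to 127 CPM in WT cells at day 0, and at 162 to 309 and 482 to 662 CPM at day 2. The Abcb10-null libraries were below the WT libraries at both days without overlap, in the direction of the label, although transcripts remained.

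Erythroid differentiation is the program in which a committed precursor stops dividing, builds the red cell membrane and fills with hemoglobin. GATA1 and its partner TAL1 switch on globin, heme synthesis and membrane genes, while factors such as MYB that hold cells in the precursor state are shut down. Heme is made by a chain of enzymes that starts and ends in the mitochondrion, and ABCB10 sits in the mitochondrial inner membrane, where it binds the iron importer mitoferrin 1 and the last enzyme, ferrochelatase. When heme or amino acids are short, or when unfolded protein collects, kinases such as HRI (*Eif2ak1*) and GCN2 phosphorylate eIF2. This slows general translation but raises that of ATF4, a transcription factor that turns on amino acid synthesis, amino acid import and the factor CHOP (*Ddit3*); the whole is called the integrated stress response.

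As a check of the labelled cell type, 13 erythroid identity markers were read, of which 11 were tested. Of these 9 rose and 1 fell at day 2. *Gata1*, *Tal1*, *Gfi1b*, *Epor*, *Alas2*, *Ank1* and *Epb42* were among those that rose, and the 1 that fell was *Klf1*, which encodes a GATA1 partner at the globin locus. Erythroid markers were therefore present. Markers of other lineages were present too, mainly at day 0. Of 10 listed markers of mast cells or basophils 5 were tested (*Cpa3*, *Fcer1a*, *Ms4a2*, *Hdc* and *Gzmb*), and these summed to 177 to 211 CPM at day 0 and 2.39 to 5.13 CPM at day 2. Of 18 listed markers of granulocytes or monocytes 6 were tested, and these summed to 44.3 to 56.3 CPM and 6.44 to 23.02 CPM. Of the 28 genes 11, among them *Elane*, *Ctsg*, *S100a8* and *S100a9*, were at or under the floor in all 10 libraries.

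The day 2 libraries were unlike each other, which bears on every result. In a principal component analysis of 9528 genes the leading component, with 66.4% of the variance, put the day 0 libraries at -36.7 to -31.2, day 2 replicates 1, 3 and 4 at 41.3 to 44.2, replicate 5 at 27.04 and replicate 2 at 12.9. The second component, with 17.2%, put replicates 2 and 5 at -39.4 and -25.8. Day 0 libraries were at 1.80 to 6.64 on it and the other day 2 libraries at 6.09 to 22.6. Replicates 2 and 5 thus lay apart from both on the second component. Over genes that moved by more than 1 on the log2 scale in the other libraries, replicate 2 showed a median of 60.4% of the change of the other 4, and replicate 5 83.1%, against 104 to 114% in replicates 1, 3 and 4. Pairs of day 2 libraries differed by 2-fold or more at 37 to 1240 genes, and pairs of day 0 libraries at 18 to 66. Replicates 2 and 5 also held more of the nuclear RNA *Rpph1*, with 2.09 and 2.17% of counts against 0.399 to 0.729% in the other day 2 libraries, and fewer protein-coding counts (91.6 and 90.4% against 93.96 to 95.3%). At 10 genes that separated the genotypes at days 0 and 5, replicates 2 and 5 were nearer to Abcb10-null cells at 9 and the other day 2 libraries at all 10, and no library pair was near identical. Results are given with all 5 libraries, and again without replicate 2 or replicates 2 and 5 where that changes the call of a gene named with its test or moves a list's count of called genes by over 1.5 times. The part of these library differences in any result was not tested.

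Of 12940 genes tested, 2984 rose and 2598 fell, and the median log2 fold change of all genes was 0.03. That is 23.1% of tested genes higher and 20.1% lower, the background against which the counts of each gene group are read. The 5 day 2 libraries lay wholly above the 5 day 0 libraries at 1785 genes (13.8% of those tested) and wholly below at 2074 (16%). Among the called genes 816 rose and 795 fell by more than 1 on the log2 scale. At more than 3 the split was 39 higher and 107 lower, so the largest movements were mostly losses. Without replicate 2, 3419 genes rose and 2947 fell, among them 2865 and 2444 of the genes called with all libraries. Without replicates 2 and 5, 3769 rose and 3616 fell. Counts of a gene group from these fits are read against these larger numbers and not against the shares above.

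**Figure D1:**
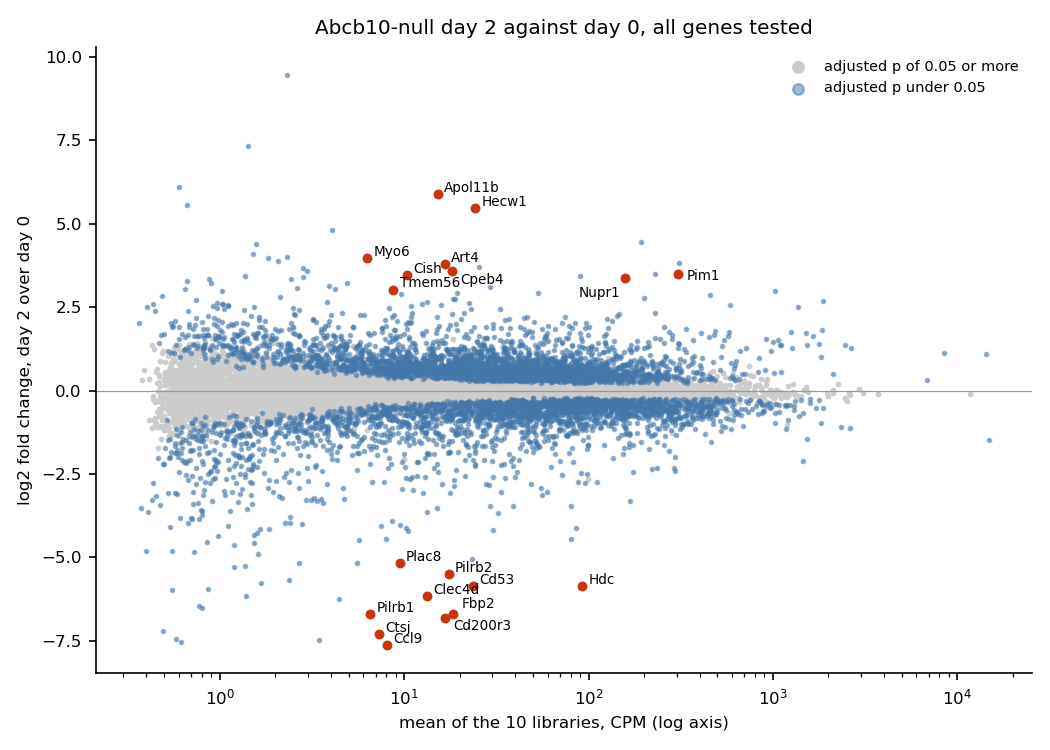
Each point is 1 of the 12940 genes tested, with its mean level over the 10 Abcb10-null libraries in CPM on a log axis and its log2 fold change of day 2 over day 0. Genes with an adjusted p under 0.05 are blue, and red names mark, at a mean of 5 CPM or more and with no overlap between the days, 9 of the 10 protein-coding genes with the largest called rise and the 10 with the largest called fall, from -7.62 for *Ccl9* to 5.90 for *Apol11b*.

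**Figure D2:**
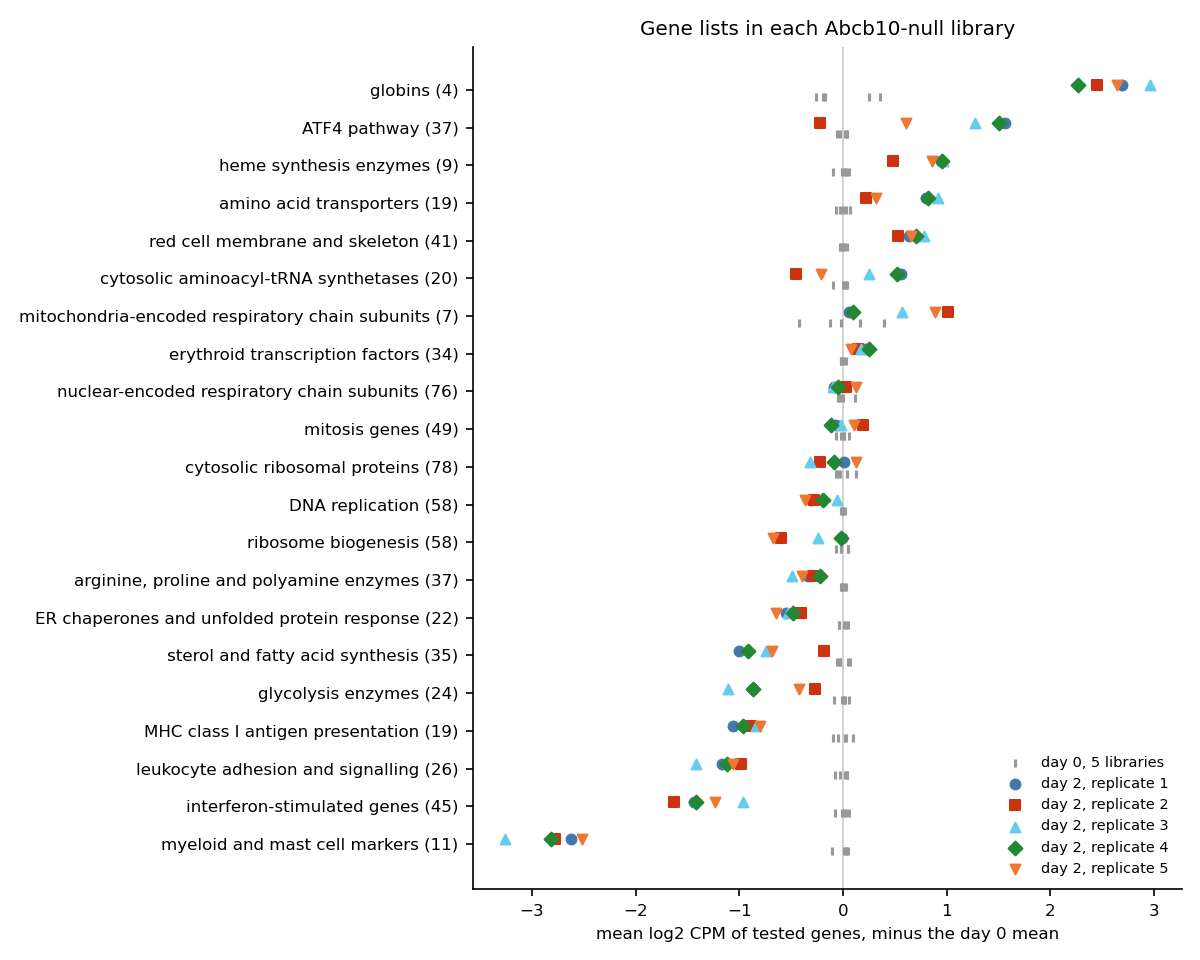
Each row is a gene list with its number of tested genes, and each mark is 1 library, placed at its mean log2 CPM over the list minus the mean of the 5 day 0 libraries (grey). Day 2 replicate 2 (red squares) lies at -0.23 for the ATF4 pathway list where replicates 1, 3 and 4 lie at 1.27 to 1.57, while all 5 day 2 libraries lie at -1.06 to -0.80 for MHC class I genes.

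Most genes of heme synthesis rose. Of the 9 genes of heme synthesis enzymes, 7 rose and 1 fell, with a median log2 fold change of 1.03. *Alas2* (chromosome X, 150547375 to 150570638 on GRCm38) encodes the erythroid form of the enzyme that makes the pathway's starting compound. Its level was 35.9, 42.4, 39.8, 38.1 and 36.01 CPM in day 0 replicates 1 to 5 and 231, 46.1, 173, 210.2 and 122 CPM in day 2 replicates 1 to 5. Every day 2 library was above every day 0 library, although replicate 2 exceeded the highest of them by little (2.02 ± 0.31 (SE), edgeR adjusted p = 0.000221). *Alas1*, the housekeeping form of the same enzyme, fell from 25.4 ± 3.39 to 18.01 ± 1.38 CPM (SD, n = 5; -0.50 ± 0.12 (SE), edgeR adjusted p = 0.00532).

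Genes of the cytosolic steps rose too. *Alad*, for porphobilinogen synthase, went from 157 to 179.7 to 237 to 539 CPM (1.03 ± 0.19 (SE)). *Uros*, for the enzyme that closes the porphyrin ring, rose by 1.56 ± 0.21 (SE). *Urod*, for the enzyme of the next step, went from 105 to 123 to 124 to 178 CPM (0.46 ± 0.10 (SE), edgeR adjusted p = 0.00279). These 3 genes moved in 1 direction by 0.46 to 1.56 on the log2 scale.

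The mitochondrial end of the pathway was uneven. *Cpox*, for coproporphyrinogen oxidase, was at 335, 385, 429.9, 399.9 and 399 CPM in the day 0 libraries and 419, 505, 277, 385 and 513 CPM in the day 2 libraries. The days overlapped and no change was detected (0.11 ± 0.15 (SE), edgeR adjusted p = 0.595), and without replicates 2 and 5, where it was highest, the estimate was -0.11. *Ppox* rose from 16.8 to 25.5 to 29.9 to 59.9 CPM (0.91 ± 0.18 (SE), edgeR adjusted p = 0.00147), with 17.5% of its exon bases overlapped on the other strand by *B4galt3*. *Fech* encodes ferrochelatase, which inserts iron to make heme, and was at 73.8, 71.9, 75.2, 77.2 and 70.8 CPM at day 0 and 148, 156, 182, 160.4 and 179 CPM at day 2. Its day 2 libraries were close to each other, replicates 2 and 5 included, and all above day 0 (1.162 ± 0.09 (SE), edgeR adjusted p = 7.13e-07).

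**Figure D3:**
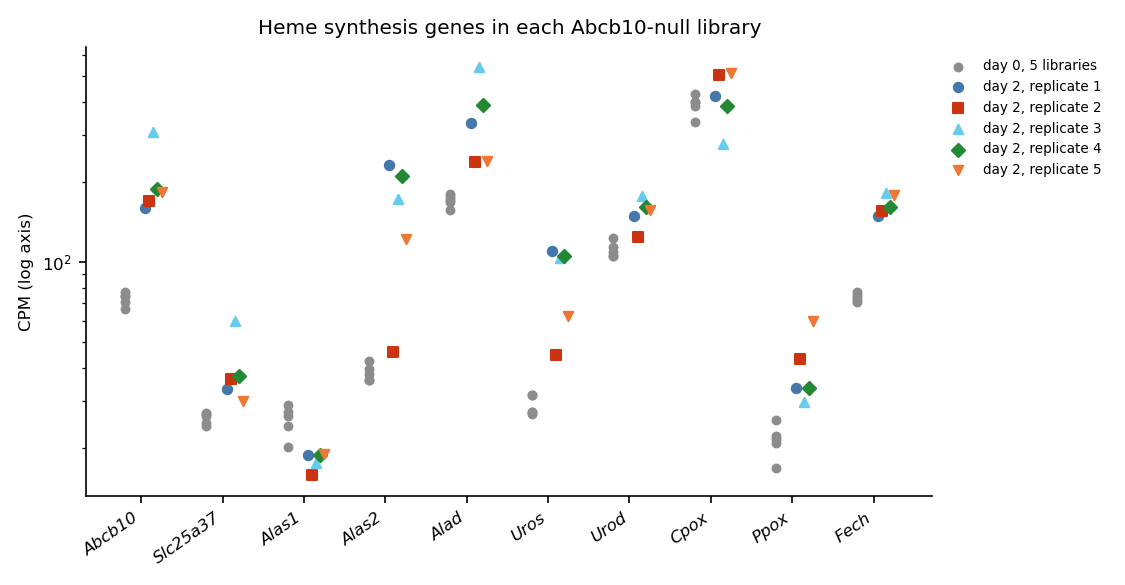
For each gene the 5 day 0 libraries (grey) and the 5 day 2 libraries (colored by replicate) are plotted in CPM on a log axis. *Alas2* spans 46.1 to 231 CPM among the day 2 libraries and *Fech* 148 to 182 CPM, while *Cpox* overlaps between the days and *Alas1* is lower at day 2.

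Transporters around the pathway moved less together: of 21 tested, 7 rose, 4 fell and 10 did not pass the test. Without day 2 replicates 2 and 5 11 rose and 3 fell. *Slc25a37* (mitoferrin 1), which brings iron into the mitochondrion and is held in place by ABCB10, was at 24.2 to 26.98 CPM at day 0 and 33.4, 36.4, 60.1, 37.2 and 29.98 CPM in day 2 replicates 1 to 5. All day 2 libraries were higher, replicate 3 by the most (0.61 ± 0.16 (SE), edgeR adjusted p = 0.00917). The heme-binding protein gene *Hebp1* rose by 1.47 ± 0.20 (SE), with replicate 5 at 91.97 CPM and the other 4 libraries at 43.7 to 52.3 CPM. In the other direction *Slc48a1*, which carries heme out of endosomes, fell by 1.02 ± 0.11 (SE) on the log2 scale and *Pgrmc1*, a heme-binding partner of ferrochelatase, by 1.06 ± 0.09 (SE).

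Iron handling gave 9 genes higher and 3 lower of 30, the latter under the background share, and without replicate 2 10 rose and 5 fell (without replicates 2 and 5, 12 and 6). Of the 15 iron-sulfur assembly genes 5 rose, led by *Isca1* (34.4 to 46.9 to 59.5 to 89.4 CPM, 0.84 ± 0.13 (SE)) and *Bola3* (0.59 ± 0.11 (SE)), and 1 fell, *Fdxr* (-0.44 ± 0.11 (SE)), which passes electrons to the assembly machinery. The transferrin receptor *Tfrc*, the main entry for iron, was at 1196, 1071, 1138, 1193 and 1265 CPM at day 0 and 886, 932, 1183, 886 and 559 CPM at day 2, and the change was just short of the threshold (-0.40 ± 0.16 (SE), edgeR adjusted p = 0.0529). It was called as lower in 5 of 19 alternative settings, DESeq2 and the fit without day 2 replicate 3 among them. The iron exporter *Slc40a1* fell from 47.5 to 54.6 to 28.4 to 44.5 CPM.

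Globin transcripts that escaped the depletion rose. Of 4 globin genes tested 3 rose, and the near-identical copies within each cluster may share reads. *Hbb-bs*, an adult beta globin, was at 6.85, 4.91, 5.28, 4.35 and 2.63 CPM in the day 0 libraries and 25.8, 26.5, 57.7, 31.1 and 18.8 CPM in the day 2 libraries. The days did not overlap, and replicate 2 was within the range of the other day 2 libraries (2.73 ± 0.31 (SE), edgeR adjusted p = 1.79e-05). *Hba-a1* went from 0.055 to 0.248 to 1.57 to 4.15 CPM and *Hbq1b*, a theta-like globin, from 0 to 0.523 to 2.78 to 5.76 CPM. The other adult beta globin, *Hbb-bt*, was at 3.41 to 7.45 CPM at day 0 and 5.50 to 12.4 CPM at day 2 (edgeR adjusted p = 0.148).

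In the red cell membrane and its skeleton 26 of 41 tested genes rose and 4 fell, with a median log2 fold change of 0.59. *Epb42* (chromosome 2, 121017891 to 121037072 on GRCm38) encodes protein 4.2, which helps to tie the membrane to its skeleton. It was at 4.23, 4.27, 4.13, 5.03 and 5.41 CPM in day 0 replicates 1 to 5 and 25.9, 19.8, 39.4, 24.5 and 26.6 CPM in day 2 replicates 1 to 5. All day 2 libraries were far above the day 0 libraries, and replicate 2 was the lowest of them (2.56 ± 0.19 (SE), edgeR adjusted p = 4.94e-07). Of 15 skeleton genes 11 rose, among them *Epb42* and *Ank1* (ankyrin; 13.04 to 19.99 to 38.9 to 81.3 CPM, 1.87 ± 0.20 (SE)). *Ank1* was highest in replicate 2, so that library was not the lowest for every erythroid gene. The 4 that fell were *Tpm3*, *Cd24a*, *Car1* and *Cat*. *Car1*, a carbonic anhydrase, went from 1614 to 1861 to 568 to 1336 CPM and *Cat*, for catalase, from 103 to 139 to 61.5 to 98.7 CPM.

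Among 34 erythroid transcription factors 14 rose and 5 fell, and without day 2 replicates 2 and 5 16 rose and 8 fell. *Tal1* was at 104, 108, 107, 105 and 108 CPM at day 0 and 279.6, 165, 324, 307 and 194 CPM at day 2, with no overlap (1.25 ± 0.16 (SE), edgeR adjusted p = 6.02e-05). *Gata1* rose from 225 to 271 to 270.4 to 413 CPM, overlapping between the days through replicate 2 (0.43 ± 0.12 (SE)). *Klf1* moved the other way: it was at 300.5, 321, 373, 337 and 329 CPM at day 0 and 147, 251, 151, 131 and 197 CPM at day 2. Every day 2 library was lower, replicates 2 and 5 least so (-0.92 ± 0.16 (SE), edgeR adjusted p = 0.000485). *Lmo2*, the bridge protein between GATA1 and TAL1, fell by 1.34 ± 0.13 (SE) on the log2 scale while its relative *Lmo4* rose by 1.29 ± 0.24 (SE), and *Stat5a*, a transducer of erythropoietin signals, fell from 101 to 116 to 45.6 to 64.2 CPM.

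Of 27 regulators of the precursor and leukemic state 5 rose and 9 fell, and without replicate 2 8 rose and 11 fell (without replicates 2 and 5, 9 and 11). *Myb* fell from 379.8, 363, 342, 403 and 389.8 CPM to 172, 119, 125, 181 and 137 CPM, with replicate 2 the lowest (-1.35 ± 0.13 (SE), edgeR adjusted p = 3.74e-06). *Ikzf2*, a zinc finger factor of the Ikaros family, fell further, from 127 to 164 to 8.78 to 16.7 CPM (-3.45 ± 0.18 (SE)). *Myc*, a driver of growth and proliferation, was higher in every day 2 library, 47.9 to 71.5 CPM against 23.5 to 30.7 CPM (1.08 ± 0.13 (SE), edgeR adjusted p = 2.54e-05). The cytokine receptor subunits *Csf2rb* and *Csf2rb2*, close copies that may share reads, rose by 1.49 ± 0.17 (SE) and 2.66 ± 0.44 (SE).

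To show the motif upstream of erythroid genes that rose, 5 that hold it within 250 bases before the start were chosen, and 60 bases around it are given for each from RefSeq (GRCm38.p6), 5′ to 3′ on the gene's strand, with the letters AGATAA or their reverse complement, a form of the GATA factor motif, in capitals.
Alas2 (chrX:150547304-150547363, plus strand): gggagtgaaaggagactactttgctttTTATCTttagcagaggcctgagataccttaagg
Art4 (chr6:136857672-136857731, minus strand): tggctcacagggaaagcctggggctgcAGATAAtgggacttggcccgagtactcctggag
Epb42 (chr2:121037068-121037127, minus strand): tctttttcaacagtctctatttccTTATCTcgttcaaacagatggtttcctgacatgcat
Hbb-bs (chr7:103828106-103828165, minus strand): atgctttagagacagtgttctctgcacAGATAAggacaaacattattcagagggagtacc
Tal1 (chr4:115056194-115056253, plus strand): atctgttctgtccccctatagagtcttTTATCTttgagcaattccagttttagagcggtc
Within 250 bases before the start, on either strand, the motif was in 7.06% of the promoters of genes that rose, 9.01% of those that fell and 7.56% of all 9114 tested genes matched to a promoter by symbol. Among lists in which more genes rose than fell it was in 8 of 30 promoters of red cell membrane genes, 5 of 30 of erythroid transcription factors, 1 of 7 of heme enzymes and 0 of 16 of heme pathway transporters. Among lists in which more genes fell it was in 3 of 9 promoters of myeloid and mast cell markers, 4 of 20 of leukocyte adhesion genes and 0 of 17 of MHC class I genes. A match is a description of the letters and not of binding.

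The largest rises were in genes of several kinds. *Apol11b*, an apolipoprotein L gene, was at 0.314, 0.589, 0.275, 0.248 and 0.992 CPM at day 0 and 31.3, 14.6, 64.03, 26.7 and 13.2 CPM at day 2 (5.90 ± 0.52 (SE), edgeR adjusted p = 2.66e-06), so it went from near the floor to a clear level in all 5 libraries. *Hecw1*, a ubiquitin ligase gene, went from 0.627 to 1.54 to 17.6 to 65.95 CPM (5.49 ± 0.38 (SE)). *Cpeb4*, which binds mRNA tails and restrains translation late in erythroid maturation, was at 2.72, 2.602, 2.92, 2.55 and 3.22 CPM at day 0 and 43.5, 24.9, 40.1, 32.6 and 26.6 CPM at day 2, a rise of 3.58 ± 0.18 (SE). *Art4*, which carries the Dombrock blood group, rose by 3.79 ± 0.26 (SE), and the motor protein gene *Myo6* by 3.96 ± 0.30 (SE). Among signalling genes *Cish*, a feedback inhibitor of STAT5, rose by 3.47 ± 0.28 (SE) and the kinase gene *Pim1* by 3.51 ± 0.44 (SE), the latter with replicate 2 at 121 CPM, replicate 5 at 260.2 CPM and the others at 729.5 to 928 CPM. *Tmem56* and *Nupr1* were also among the 10 protein-coding genes that rose most without overlap at a mean of 5 CPM or more.

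Genes of the integrated stress response were higher in day 2 replicates 1, 3, 4 and 5 and not in replicate 2. Of 37 tested members of the ATF4 pathway 23 rose and 2 fell, with a median log2 fold change of 0.96, against backgrounds of 23.1 and 20.1%. Read library by library, 32, 30, 31 and 23 of these genes were above the whole day 0 range in replicates 1, 3, 4 and 5. In replicate 2, 8 were above it and 22 below it. These single-library counts have no share of all tested genes beside them, so they describe this list only. Without replicate 2, 28 rose and 2 fell, with a median of 1.15.

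*Atf4* itself, which is controlled mainly in its translation, was at 324, 305, 343, 344 and 315 CPM in day 0 replicates 1 to 5 and 573, 198, 605, 639.8 and 388 CPM in day 2 replicates 1 to 5. Replicate 2 was below all day 0 libraries and the other 4 above them, and the change was not called (0.56 ± 0.24 (SE), edgeR adjusted p = 0.0735) unless replicate 2 was left out (0.77, edgeR adjusted p = 0.00025). *Ddit3* (chromosome 10, 127290774 to 127296288 on GRCm38), whose product CHOP links sustained stress to cell death, was at 49.1, 52.2, 54.7, 50.7 and 49.1 CPM at day 0 and 497, 30.1, 492, 511 and 218 CPM at day 2. It showed a like pattern, with replicates 1, 3 and 4 close to each other, replicate 5 between and replicate 2 under day 0, and passed the test with all 5 (2.77 ± 0.52 (SE), edgeR adjusted p = 0.000851).

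*Trib3*, a pseudokinase that feeds back on ATF4 and CHOP, was at 37.4, 39.6, 42.03, 41.7 and 43.1 CPM at day 0 and 718, 23.8, 956, 954 and 241 CPM at day 2 (3.83 ± 0.67 (SE), edgeR adjusted p = 0.000528), the largest rise of the pathway list. *Atf3*, a stress-induced factor of the same family as ATF4, was at 3.45, 2.602, 4.68, 2.36 and 4.71 CPM and then 84.4, 1.73, 51.8, 86.9 and 10.7 CPM (3.72 ± 0.76 (SE)). *Chac1*, which breaks down glutathione, was at 4.13, 7.02, 6.82, 5.90 and 6.79 CPM and then 71.02, 6.60, 67.4, 74.4 and 43.8 CPM (3.10 ± 0.47 (SE)). In these 3 genes replicate 2 overlapped or lay under day 0. *Nupr1*, a small chromatin protein of the stress response, and *Ppp1r15a* (GADD34), which recruits the phosphatase that reverses eIF2 phosphorylation, differed from them in that all 5 day 2 libraries were above day 0. *Nupr1* was at 22.2 to 31.1 CPM at day 0 and 453, 55.9, 349, 370.4 and 203 CPM at day 2 (3.36 ± 0.41 (SE)), and *Ppp1r15a* at 10.5 to 13.7 and 138, 19.8, 124, 121 and 66.7 CPM (2.93 ± 0.39 (SE)).

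Both genes of the list that fell belong to its upstream arm. *Eif2s1*, the subunit of eIF2 that the kinases phosphorylate, went from 450.5 to 538 to 271 to 421 CPM (-0.42 ± 0.12 (SE), edgeR adjusted p = 0.0127). *Eif2ak2* (PKR), the kinase that senses double-stranded RNA and is itself induced by interferon, went from 168 to 201 to 95.7 to 141 CPM (-0.75 ± 0.12 (SE)). Of the 23 targets in the list 15 rose and none fell, and among the factors 5 of 7 rose.

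**Figure D4:**
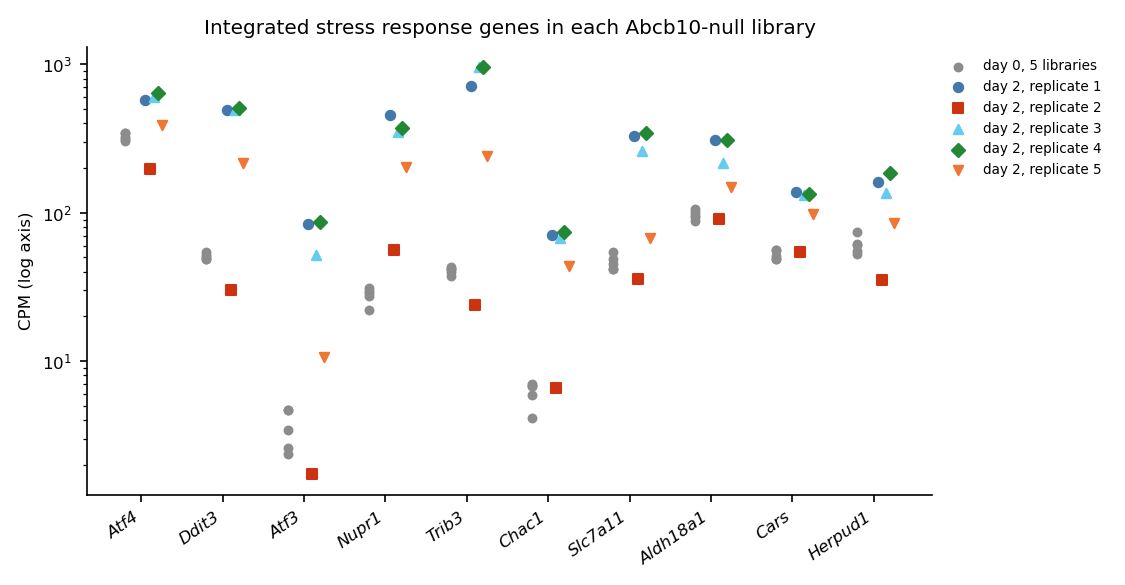
For each stress response gene the 5 day 0 libraries (grey) and the 5 day 2 libraries (colored by replicate) are plotted in CPM on a log axis. Replicates 1, 3 and 4 sit highest, replicate 5 between them and day 0 or near day 0, and replicate 2 (red squares) in or under the day 0 range for 9 of the 10 genes, all but *Nupr1*, as for *Trib3* with 23.8 CPM against 37.4 to 43.1 CPM at day 0.

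The promoters of stress genes that rose are given to show the letters TGATGNAA or their reverse complement, a form of the C/EBP-ATF element that ATF4 binds, in capitals, each in 60 bases from RefSeq (GRCm38.p6) read 5′ to 3′ on the gene's strand.
Chac1 (chr2:119351023-119351082, plus strand): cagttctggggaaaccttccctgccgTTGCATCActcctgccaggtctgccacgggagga
Atf3 (chr1:191183410-191183469, minus strand): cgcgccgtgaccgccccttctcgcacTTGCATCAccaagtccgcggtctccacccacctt
Slc7a11 (chr3:50443646-50443705, minus strand): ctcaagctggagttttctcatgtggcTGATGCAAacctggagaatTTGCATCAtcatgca
Asns (chr6:7693210-7693269, minus strand): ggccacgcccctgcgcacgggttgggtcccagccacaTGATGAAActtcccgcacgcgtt
Nupr1 (chr7:126625547-126625606, minus strand): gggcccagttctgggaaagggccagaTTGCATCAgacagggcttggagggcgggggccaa
The element was within 250 bases before the start in 6 of the 32 pathway genes with a promoter, namely *Atf3*, *Nupr1*, *Chac1*, *Asns*, *Pycr1* and *Slc7a11*, and in 2.27% of all tested genes. It was in 2.81% of promoters of genes that rose and 1.98% of those that fell.

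Amino acid transporters rose more often than they fell. *Slc7a1*, *Slc7a5*, *Slc7a11*, *Slc3a2* and *Slc1a5* are also members of the ATF4 pathway list. In replicate 2 the transporter list was at 0.22 in mean log2 CPM from day 0, where the ATF4 pathway list was at -0.23. In the other day 2 libraries the transporter list was at 0.32 to 0.92. Of 19 transporters 12 rose and 2 fell, the latter count being 1 without day 0 replicate 2 or day 2 replicate 4 and 4 without day 2 replicates 2 and 5. *Slc7a11*, the cystine importer, was at 45.05, 41.9, 41.9, 48.4 and 54.7 CPM at day 0 and 327, 35.7, 262, 343 and 67.5 CPM at day 2. Replicates 1, 3 and 4 were far above day 0, replicate 5 was just above it and replicate 2 just under it (2.16 ± 0.48 (SE), edgeR adjusted p = 0.003). *Slc7a1*, which takes up arginine, was at 41.2, 40.2, 34.8, 38.5 and 40.97 CPM and then 135, 87.5, 108, 121 and 75.8 CPM, with no overlap between the days (1.43 ± 0.14 (SE), edgeR adjusted p = 8.16e-06). *Slc6a9*, the glycine transporter that feeds heme synthesis, rose from 3.42 to 5.85 to 7.11 to 56.5 CPM (2.93 ± 0.47 (SE)). The leucine carrier *Slc7a5* rose by 1.19 ± 0.22 (SE) and its heavy chain *Slc3a2* by 1.23 ± 0.30 (SE), while *Slc7a6* was at 35.7 to 46.9 CPM at day 0 and 35.2 to 49.2 CPM at day 2 (edgeR adjusted p = 0.609). *Slc7a7* was not called with all libraries but was called without replicate 2 (0.52 ± 0.22 (SE), edgeR adjusted p = 0.0762 with all libraries and 0.00318 without it).

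Enzymes of arginine, proline and polyamine metabolism went down more than up, with 6 higher and 20 lower of 37. None of the 10 tested enzymes of arginine and the urea cycle rose and 6 fell. *Ass1*, which joins citrulline and aspartate on the way to arginine, was low throughout, 4.02, 3.93, 3.25, 2.48 and 4.56 CPM at day 0 and 0.968, 2.59, 1.14, 2.12 and 1.03 CPM at day 2, and fell with a slight overlap (-1.22 ± 0.31 (SE), edgeR adjusted p = 0.00701). The next enzyme of that path, *Asl*, was at 23.6 to 31.5 and 23.9 to 31.2 CPM (edgeR adjusted p = 0.627). *Nags* fell by 0.97 ± 0.13 (SE) on the log2 scale, the collagen prolyl hydroxylase gene *P4ha1* by 1.09 ± 0.19 (SE), and *Padi3*, which makes citrulline from arginine in proteins, went from 79.4 to 97.9 to 54.2 to 67.3 CPM (-0.55 ± 0.10 (SE)). Against that trend *Aldh18a1*, the entry enzyme of proline synthesis and an ATF4 target, rose by 1.15 ± 0.26 (SE), with replicate 2 at 90.2 CPM inside the day 0 range of 87.7 to 106 CPM. *Smox*, which oxidizes spermine, rose in all 5 libraries from 5.26 to 7.46 to 22.1 to 48.97 CPM (2.63 ± 0.23 (SE)).

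In 3 other amino acid genes of the stress list replicates 1, 3 and 4 were highest at day 2, replicate 5 was next and replicate 2 was lowest. *Asns*, asparagine synthetase, was at 554 to 590.2 CPM at day 0 and 1538, 551, 1070.4, 1493 and 933 CPM at day 2 (0.96 ± 0.22 (SE)). *Gpt2*, a mitochondrial alanine aminotransferase, was at 51.3 to 69.8 CPM and then 302, 65.7, 161, 265 and 118 CPM (1.64 ± 0.32 (SE)). *Sesn2*, which restrains mTORC1 when leucine is short, was at 5.34 to 9.62 CPM and then 36.4, 6.65, 39.5, 36.2 and 16.1 CPM (1.83 ± 0.39 (SE)). *Naprt*, which makes the NAD precursor nicotinic acid mononucleotide, was low but higher in each day 2 library, 1.35 to 2.18 CPM against 0.784 to 1.09 CPM (0.96 ± 0.26 (SE), edgeR adjusted p = 0.00948).

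Of the 20 cytosolic aminoacyl-tRNA synthetases, which charge tRNAs with amino acids, 3 rose and 4 fell. The count depended on 2 libraries: without replicate 2, 10 rose and 4 fell, and without replicate 5, 7 rose (without both, 14). *Cars* rose from 48.8 to 56.3 to 54.5 to 138 CPM (1.09 ± 0.20 (SE)) and *Iars* by 0.79 ± 0.13 (SE), while *Qars* and *Farsa* fell by 0.62 ± 0.09 (SE) and 0.65 ± 0.14 (SE). *Rars*, for arginine, was at 429.8, 414, 419, 429 and 426 CPM at day 0 and 912, 251, 521, 812 and 384 CPM at day 2, from under to over the day 0 level (0.44 ± 0.27 (SE), edgeR adjusted p = 0.199; without replicate 2 0.65, edgeR adjusted p = 0.0132).

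Genes of the machinery that makes ribosomes fell more often than they rose. Of 58 ribosome biogenesis genes 2 rose, 24 fell and 32 did not pass the test. Without replicate 2 5 rose and 23 fell, and 5 rose without replicate 5. Without both 15 rose and 22 fell, with a median log2 fold change of -0.10 in place of -0.27. Without day 0 replicate 2, 3 or 4 or day 2 replicate 3 the count higher was 1. *Bop1* and *Pes1*, which form a complex that matures the large subunit, fell by 1.18 ± 0.11 (SE) and 1.08 ± 0.10 (SE) on the log2 scale, *Pes1* from 388 to 454 to 183 to 233 CPM with all 5 libraries lower. As a group the list was lowest in replicates 2 and 5, at -0.60 and -0.68 in mean log2 CPM from day 0, and at -0.24 to -0.01 in the others. The 2 that rose were *Taf1d* (0.57 ± 0.15 (SE)) and *Ncl*, for nucleolin (0.38 ± 0.13 (SE), edgeR adjusted p = 0.0358), the latter not called in 5 of the 10 fits that each left out 1 library, the one without replicate 2 among them (edgeR adjusted p = 0.0561).

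Of 78 cytosolic ribosomal proteins none rose and 11 fell, fewer than the background share of genes lower. The count lower was 3 without day 2 replicate 3, 4 to 7 without any 1 of day 0 replicates 2 to 5, and 21 without day 2 replicates 2 and 5. Without day 2 replicate 2, 3 rose, and without day 0 replicate 1 or any 1 of day 2 replicates 1, 3 and 4, 1 rose. *Rpl27* went from 248 to 284 to 163 to 202 CPM (-0.50 ± 0.09 (SE)).

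Among nuclear-encoded subunits of the respiratory chain 13 rose and 11 fell of 76, under the background in both directions. The count higher was 4 to 7 without any 1 of the day 0 libraries. Without day 2 replicates 2 and 5 the count lower was 23, in a fit where 3616 of all tested genes fell. *Ndufb4* and *Ndufa3* of complex I rose by 0.56 ± 0.12 (SE) and 0.43 ± 0.13 (SE), and *Atp5g1* of ATP synthase and *Cox5a* of complex IV fell by 0.72 ± 0.10 (SE) and 0.64 ± 0.10 (SE). Of 7 tested mitochondria-encoded subunits 3 rose, and 1 without day 0 replicate 4 or 5. *mt-Cytb* was at 175, 106, 133, 121 and 74.2 CPM at day 0 and 211, 306, 336, 243 and 430.00 CPM at day 2, highest in replicates 3 and 5 (1.33 ± 0.22 (SE), edgeR adjusted p = 0.000404), and *mt-Nd4* rose by 0.73 ± 0.24 (SE), a call lost in 3 of the 10 fits that each left out 1 library and without day 2 replicates 2 and 5.

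Among cell cycle genes those of DNA replication fell more often than they rose. Of 58 DNA replication genes 4 rose and 22 fell, and without replicates 2 and 5 12 rose and 23 fell. *Orc1*, of the origin recognition complex, went from 88.3, 75.2, 78.2, 78.7 and 77.2 CPM to 21.6, 46.2, 38.3, 22.7 and 36.4 CPM (-1.26 ± 0.19 (SE), edgeR adjusted p = 0.000145), with replicate 2 the highest at day 2, and *Tk1*, thymidine kinase, from 101 to 131 to 26.6 to 76.6 CPM (-1.20 ± 0.24 (SE)). *Dck*, which salvages deoxynucleosides, rose by 0.43 ± 0.11 (SE) and *Gins4*, of the replicative helicase, by 0.40 ± 0.11 (SE). Of 49 mitosis genes 10 rose and 7 fell, under the background share in both directions. The count lower was 12 without day 2 replicate 2, 16 without replicates 2 and 5, and 2 to 4 without any 1 of day 0 replicates 1, 2, 4 and 5 or day 2 replicates 1, 3 and 4. *Ndc80* and *Cenpe*, which attach chromosomes to the spindle, rose by 0.88 ± 0.15 (SE) and 0.85 ± 0.14 (SE), and *Kif20a* and *Bub1b* fell by 1.01 ± 0.13 (SE) and 0.50 ± 0.09 (SE); *Kif20a* shares 29.3% of its exon bases with *Cdc23* on the other strand.

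Of 34 genes for G1 cyclins and inhibitors 11 rose and 4 fell, and without replicate 2 12 rose and 9 fell (without replicates 2 and 5, 12 and 10). *Gadd45a*, a growth arrest gene, was at 26.7, 27.2, 27.1, 26.02 and 26.6 CPM at day 0 and 162, 30.3, 176, 157 and 86.8 CPM at day 2, with replicate 2 barely above day 0 (2.20 ± 0.35 (SE)). *Btg2*, an antiproliferative gene, rose in all 5 libraries from 31.2 to 40.97 to 68.99 to 139 CPM (1.54 ± 0.18 (SE)). *Cdk4* and *E2f1*, which push cells into S phase, fell by 0.62 ± 0.10 (SE) and 0.73 ± 0.10 (SE) on the log2 scale. The inhibitor p21 (*Cdkn1a*) was at 1.67 to 2.75 CPM at day 0 and 1.72 to 2.12 CPM at day 2 (edgeR adjusted p = 0.36).

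Of 35 genes of autophagy, ubiquitin and late maturation 12 rose and 4 fell, and without day 2 replicates 2 and 5 15 rose and 7 fell. *Wipi1* and *Map1lc3a*, which build autophagosomes, rose by 1.49 ± 0.19 (SE) and 1.04 ± 0.22 (SE). *Bnip3*, a mitophagy receptor, was at 293, 309, 352, 326 and 342 CPM at day 0 and 77.2, 279, 51.98, 63.6 and 186 CPM at day 2. Replicate 2 remained close to the day 0 range, replicate 5 was lower and replicates 1, 3 and 4 were lowest (-1.30 ± 0.38 (SE), edgeR adjusted p = 0.0141).

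Glycolysis went down: of 24 genes none rose and 15 fell, with a median log2 fold change of -0.64. *Hk2*, a hexokinase that commits glucose to the pathway, was at 214, 221, 171, 221 and 224 CPM at day 0 and 60.8, 126, 69.1, 54.9 and 79.6 CPM at day 2 (-1.43 ± 0.19 (SE), edgeR adjusted p = 7.32e-05). *Pgam1* was at 26.6 to 48.2 CPM and then 8.29, 32.8, 7.48, 9.61 and 14.7 CPM, replicate 2 staying within day 0 (-1.37 ± 0.36 (SE)). *Pkm*, pyruvate kinase, went from 2870.00 to 4229 to 946 to 2155 CPM (-1.13 ± 0.19 (SE)). The decline thus ran through the pathway and was smallest in replicate 2, at -0.27 in mean log2 CPM, against -0.43 in replicate 5 and -1.11 to -0.87 in the others.

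Of 35 genes of sterol and fatty acid synthesis 3 rose and 21 fell, and without day 2 replicates 2 and 5 5 rose and 26 fell. *Elovl6*, which lengthens fatty acids, was at 75.7, 76.05, 65.3, 68.8 and 73.9 CPM at day 0 and 23.03, 39.5, 22.7, 20.7 and 18.7 CPM at day 2, so all 5 day 2 libraries were lower, replicate 2 least so (-1.53 ± 0.18 (SE), edgeR adjusted p = 2.15e-05). The 3 that rose were *Tm7sf2*, *Hsd17b7* and *Fads1*.

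Endoplasmic reticulum chaperones fell: 15 of 22 were lower and 3 higher, with a median log2 fold change of -0.64. In WT cells over the same days 16 were lower and 2 higher, with a median of -1.05. *Hspa5* (BiP), the main chaperone of the unfolded protein response, was at 3204, 3032, 3186, 3445 and 3116 CPM at day 0 and 1281, 1736, 1761, 1412 and 1260.2 CPM at day 2 (-1.10 ± 0.12 (SE), edgeR adjusted p = 1.40e-05). *Calr* and *Hyou1* fell by 1.62 ± 0.18 (SE) and 1.53 ± 0.10 (SE) on the log2 scale in all 5 libraries. Of the 3 that rose, *Herpud1* was at 52.99 to 74.4 CPM at day 0 and 162, 35.3, 136, 185 and 84.9 CPM at day 2, with replicates 1, 3 and 4 highest and replicate 2 lowest (0.98 ± 0.32 (SE), edgeR adjusted p = 0.0244; lost in 4 of the 10 fits that each left out 1 library), and *Atf6* rose by 0.88 ± 0.17 (SE). Among 20 NRF2 and glutathione genes 3 rose (5 without day 2 replicate 5) and 9 fell, led by *Pgd* of the pentose phosphate path (252 to 272 to 70.5 to 106 CPM, -1.64 ± 0.11 (SE)) and *Gsta4* (-1.54 ± 0.22 (SE)).

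Interferon-stimulated genes were among the groups that fell most. Of 45 tested, 31 fell and 2 rose, with a median log2 fold change of -1.33, and of the 25 effector genes 21 fell and none rose. *Irf7* (chromosome 7, 141262706 to 141266481 on GRCm38), the factor that amplifies the interferon response, was at 41.1, 61.02, 73.8, 57.9 and 69.5 CPM at day 0 and 6.56, 7.92, 16.05, 10.5 and 8.52 CPM at day 2, with no overlap (-2.61 ± 0.23 (SE), edgeR adjusted p = 2.59e-06). *Dhx58* (LGP2), a sensor of viral RNA, was at 49.8, 55.5, 43.4, 47.4 and 48.7 CPM and then 3.82, 8.63, 9.09, 3.93 and 9.39 CPM (-2.81 ± 0.24 (SE)). *Gbp3*, an interferon-inducible GTPase, fell by 2.99 ± 0.20 (SE). The 2 genes higher were the receptor subunit *Ifnar1* (0.24 ± 0.09 (SE), edgeR adjusted p = 0.0411), lost in 8 of the 10 fits that each left out 1 library, and the inhibitor *Socs1*, and 0 or 1 were higher without any 1 of the day 0 libraries or of day 2 replicates 1, 3 and 4. Unlike the stress genes, this list was as low in replicate 2 (-1.63 in mean log2 CPM from day 0) as in the other day 2 libraries (-1.44 to -0.97).

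For *Irf7* and *Dhx58*, 2 of the listed genes, the day 0 level was itself high beside WT. On a scaling of all 20 libraries of days 0 and 2, *Irf7* was at 41.7 to 75.3 CPM in Abcb10-null and 1.33 to 2.81 CPM in WT cells at day 0, and at 6.65 to 16.04 and 2.92 to 6.56 CPM at day 2. *Dhx58* was at 44.2 to 56.9 and 4.07 to 4.80 CPM at day 0 and 3.87 to 9.37 and 3.39 to 4.34 CPM at day 2. So the gap between the genotypes was narrower at day 2 for both genes, with an interaction of -3.81 (edgeR adjusted p = 6.57e-07) and -2.64 (edgeR adjusted p = 4.68e-06).

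MHC class I genes, which show peptides to T cells, were lower as a list in every day 2 library. Of 19 tested 17 fell and none rose. *H2-T23* was at 81.2, 85.5, 86.9, 81.2 and 73.3 CPM at day 0 and 25.6, 21.7, 28.5, 27.02 and 26.6 CPM at day 2 (-1.66 ± 0.10 (SE), edgeR adjusted p = 1.15e-07), and the immunoproteasome subunit *Psmb10* went from 60.5 to 73.9 to 16.8 to 24.2 CPM (-1.73 ± 0.12 (SE)). Their spread among the day 2 libraries was small, replicate 2 included.

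The largest falls were in genes that are not part of the red cell program, and at day 2 most of them were at or under the floor in at least 1 library, though *Hdc* and *Plac8* were above it in all 5. *Ccl9*, a chemokine, was at 17.04, 14.7, 17.8, 16.5 and 14.2 CPM at day 0 and 0, 0, 0.104, 0 and 0.258 CPM at day 2, so it was at 0 in 3 of the 5 libraries and under the floor in 4 (-7.62 ± 0.44 (SE), edgeR adjusted p = 8.23e-08, a fitted value). *Hdc* (chromosome 2, 126593667 to 126619299 on GRCm38), which makes histamine, was at 174, 188, 181, 198 and 164 CPM and then 2.37, 4.87, 2.23, 1.995 and 4.13 CPM (-5.85 ± 0.23 (SE)). *Cd53*, a tetraspanin of white cells, was at 55.9, 41.4, 45.4, 55.8 and 33.9 CPM and then 0.861, 1.02, 0.623, 1.33 and 0.155 CPM (-5.87 ± 0.32 (SE)). The other 7 were *Ctsj*, *Cd200r3*, *Fbp2*, *Pilrb1*, *Clec4d*, *Pilrb2* and *Plac8*, whose day 0 levels ran from 9.77 to 42.9 CPM and whose day 2 levels were at most 1.51 CPM. *Pilrb1* and *Pilrb2* are close copies that may share reads.

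Markers of other blood lineages went the same way. Of 11 tested myeloid and mast cell markers 9 fell and none rose, and their summed level went from 221 to 267 CPM at day 0 to 8.83 to 27.7 CPM at day 2. *Fcgr3*, a receptor for IgG, went from 25.8 to 32.04 to 1.42 to 3.72 CPM. *Mcpt2*, a mast cell protease, fell less, from 35.9, 31.6, 32.5, 31.5 and 31.4 CPM to 16.7, 11.6, 15.2, 12.8 and 10.5 CPM (-1.29 ± 0.14 (SE)). In bulk RNA fewer cells with these transcripts and less of them per cell cannot be told apart. Of 26 leukocyte adhesion and signalling genes 23 fell, among them *Lcp1* (L-plastin; 45.8 to 55.4 to 4.93 to 10.5 CPM, -2.82 ± 0.18 (SE)), and the integrin gene *Itgb7* alone rose (1.72 ± 0.18 (SE)).

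Of 11 megakaryocyte markers 6 fell and 1 rose. *Pf4*, platelet factor 4, went from 216, 221, 218, 235 and 227 CPM to 84.1, 99.5, 53.5, 92.2 and 124 CPM (-1.30 ± 0.17 (SE)) and *Gp5* fell by 1.37 ± 0.30 (SE). The 1 that rose, the thrombin receptor *F2r*, was at 53.5 to 68.8 CPM at day 0 and 205, 44.2, 174, 243 and 79.5 CPM at day 2, again with replicates 1, 3 and 4 highest and replicate 2 lowest (1.33 ± 0.35 (SE)). *Fcgr1*, a high-affinity IgG receptor on none of these lists, showed that pattern too, at 4.51 to 10.1 CPM and then 51.1, 4.52, 25.2, 50.6 and 10.5 CPM (1.97 ± 0.52 (SE)). Of 3 lymphoid markers tested 1 fell (and 1 rose without day 2 replicate 2 or 3), and 9 defining ones such as *Cd4* and *Rag1* were at or under the floor in all 10 libraries.

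WT cells over the same 2 days give the measure of what was particular to the Abcb10-null cells. In WT 4049 genes rose and 3936 fell of 12839 tested (31.5 and 30.7%). Of 12411 genes tested in both genotypes 5399 were called in Abcb10-null cells and 7710 in WT, and 3680 were called in the same direction, 68.2% of the former and 47.7% of the latter. A further 228 were called in opposite directions, 141 higher in Abcb10-null and lower in WT, and 87 the reverse. The test of the difference itself, the interaction of genotype and day in the 20 libraries, called 1679 of 13980 genes with a more positive change in Abcb10-null cells (12%) and 1509 with a more negative one (10.8%). Scaling by total counts in place of TMM changed these to 896 and 2152, that is from 52.7 to 29.4% more positive, with the median of all genes at -0.16. WT day 2 libraries were not uniform either and lay in 2 sets. Replicates 1 and 2 were 2-fold apart at 23 genes and replicates 3, 4 and 5 at 34 to 79. Pairs across the sets were 2-fold apart at 470 to 805 genes. Leaving out 1 library removes neither set, and the part of this split in the interaction was not tested.

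**Figure D5:**
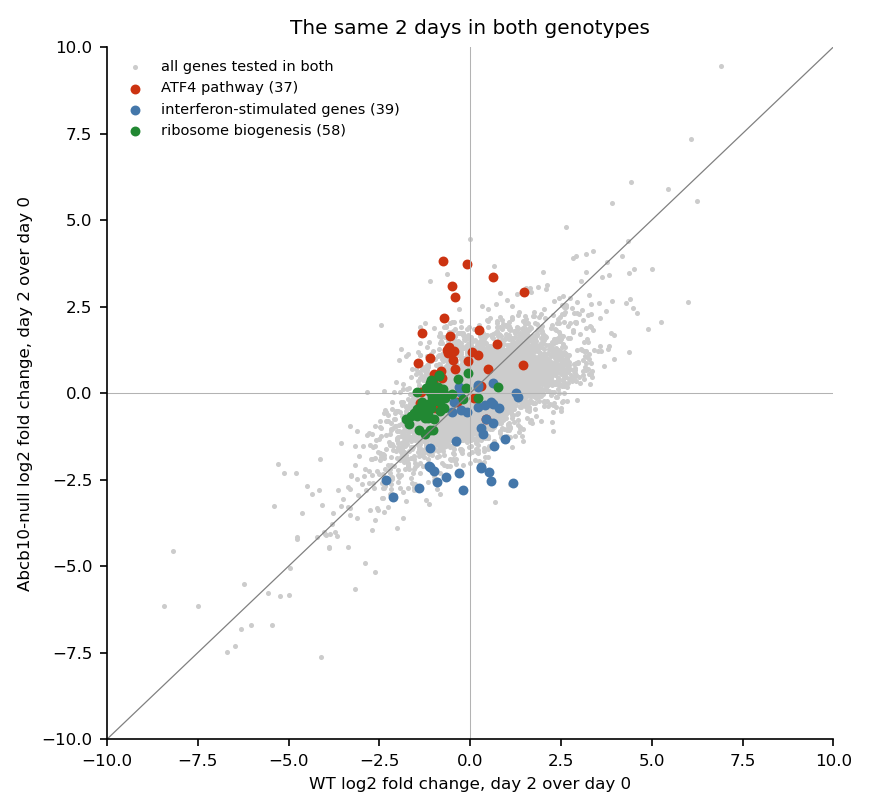
Each point is a gene tested in both genotypes, with its log2 fold change of day 2 over day 0 in WT on the x axis and in Abcb10-null cells on the y axis, and the diagonal marks equal change. Of the 37 ATF4 pathway genes 33 lie above the diagonal, of the 58 ribosome biogenesis genes 55, and of the 39 interferon-stimulated genes 4. The share of all plotted genes above it is not given. The median interaction of all tested genes was 0.02, and -0.16 with total counts in place of TMM.

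The ATF4 pathway list was lower at day 2 in WT and higher in Abcb10-null day 2 replicates 1, 3, 4 and 5. Abcb10-null day 2 replicate 2 was lower too, at -0.23 in mean log2 CPM from day 0. In WT 7 of its genes rose and 24 fell (median -0.49), and the interaction was positive for 30 and negative for 2 of 37. *Trib3* changed by -0.74 in WT (edgeR adjusted p = 0.00384) and 3.83 in Abcb10-null cells, an interaction of 4.55 (edgeR adjusted p = 0.000305). For *Ddit3* the interaction was 3.18 (edgeR adjusted p = 0.000711) and for *Atf4* 1.52 (edgeR adjusted p = 0.000987), with *Atf4* at -0.99 in WT. *Fcgr1* fell by 2.47 in WT and rose by 1.97 in Abcb10-null cells.

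Most heme synthesis genes rose in both genotypes. In WT 8 of the 9 genes rose, and the interaction was negative for 2 and positive for none. These 2 were *Ppox*, at 2.33 in WT against 0.91 in Abcb10-null cells (interaction -1.45, edgeR adjusted p = 0.000376), and *Fech*, at 1.57 against 1.162 (interaction -0.43, edgeR adjusted p = 0.0095). *Cpox* rose in WT, from 336 to 378 to 444 to 630 CPM on the scaling of 20 libraries, and was not called in Abcb10-null cells. Its interaction was -0.49 (edgeR adjusted p = 0.0579) and that of *Urod* -0.35 (edgeR adjusted p = 0.0536), both just short of the threshold. *Alas1* fell in Abcb10-null cells and was not called in WT (interaction -0.38, edgeR adjusted p = 0.148). For *Alas2* the changes were 2.45 and 2.02, and the difference was not called (-0.45, edgeR adjusted p = 0.346). Its level on the scaling of 20 libraries was lower in Abcb10-null than in WT cells at both days, without overlap. It was at 36.4 to 43.5 against 93.3 to 113 CPM at day 0, and at 45.9 to 235 against 443.5 to 624 CPM at day 2. *Klf1* did not pass the test in WT (-0.16, edgeR adjusted p = 0.108) and its interaction was -0.79 (edgeR adjusted p = 0.00529). *Tfrc* rose in WT by 0.65, with an interaction of -1.07 (edgeR adjusted p = 0.00357).

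Of the 58 ribosome biogenesis genes 53 fell in WT (median -1.08) against 24 in Abcb10-null cells (median -0.27; 22 lower and 15 higher without day 2 replicates 2 and 5), and the interaction was positive for 43 and negative for none. Of ribosomal proteins 62 of 78 fell in WT, and the interaction was positive for 9, near the share of all tested genes (12%). Of the 20 aminoacyl-tRNA synthetases 17 fell in WT, and the interaction was positive for 16. *Myb* fell by 2.59 in WT and by 1.35 ± 0.13 (SE) in Abcb10-null cells (interaction 1.22, edgeR adjusted p = 0.00397). In the opposite sense the interferon list had 25 negative and no positive interactions among 45 genes, and glycolysis 10 negative and 1 positive of 24, with *Hk2* at -0.73 in WT (interaction -0.73, edgeR adjusted p = 0.0287). Since the Abcb10-null cells are 1 clone, the genotype and other properties of the clone cannot be told apart in these differences.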

How the data were processed

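Gene counts, not normalized, were deposited by the authors, who trimmed adapters with cutadapt, aligned reads with STAR 2.6.1b to GRCm38 and used featureCounts 1.6.3 to count reads over Ensembl genes. Tools and versions are per the study's methods and the submitters' processing notes. Whether counting used strand, multimapped reads or fragments is not given in the sources used here. Without these settings, reads of overlapping genes cannot be told apart: another gene covers 10% or more of the exon bases of *Abcb10*, *Alas2*, *Bnip3*, *Cdk4*, *Cox5a*, *Gadd45a*, *Kif20a*, *Mir451a*, *Nags*, *Naprt*, *Orc1*, *Pim1*, *Pkm*, *Ppox*, *Slc6a9* and *Tm7sf2* among the genes named.

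Groups and replicate numbers came from the labels. Counts of the 10 Abcb10-null libraries of days 0 and 2 were tested with edgeR 4.0.16 in R 4.3.3 (TMM, filterByExpr, glmQLFit, glmQLFTest; Benjamini-Hochberg adjusted p under 0.05), the WT libraries likewise, and the interaction in 1 fit of 20 libraries. SE is the absolute log2 fold change divided by the square root of F. Of 54532 genes listed, 12940 were tested, 22764 had no count in the 10 libraries, and 37 identifiers with 0.0116% of counts were not in the annotation. Principal components and list means used log2 CPM with a prior count of 2, the former over genes with a mean of at least 5 CPM. The floor of 3 counts covers counting error only; the SE comes from the spread between libraries.

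The comparison, the 29 gene lists and the markers were chosen with earlier results of these data known, so no list is independent evidence, and lists are described by counts and medians beside those of all genes. Genes were named by a rule: *Abcb10* and the heme, arginine and stress genes the study names; the 10 protein-coding genes that rose most and fell most without overlap at a mean of at least 5 CPM; up to 2 risen and 2 fallen members of each list at that level; and the 4 largest interactions in each direction. A further 19 genes were chosen after their values were seen: *Hba-a1*, *Hbq1b*, *Hbb-bt*, *Ank1*, *Klf1*, *Gata1*, *Ppp1r15a*, *Asns*, *Gpt2*, *Sesn2*, *Slc3a2*, *Cebpg*, *Myc*, *Tfrc*, *Pkm*, *Hspa5*, *Mcpt2*, *Cdkn1a* and *Mir451a*. Other members are named without values, and 9 genes are not reported here.

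Alternatives were DESeq2 1.42.0, its size factors in edgeR, total counts, other filters on low counts, all 30 libraries in 1 fit, leaving out globin, mitochondria-encoded and small RNA genes, the study's fold limit of 0.58, the replicate number as a term, and leaving out each library; leaving out day 2 replicates 2 and 5 together was added after seeing the data. The steps were tested on simulated data. Promoters were RefSeq sequences of GRCm38.p6, matched by symbol for 9114 of the tested genes.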

Additional observations from a re-analysis of the deposited data

Results flagged for a closer look

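Each named gene gave 2 groups of 5 Abcb10-null libraries, at day 0 and at day 2. In 17 of these 294 groups 1 library stood apart from the other 4 by Dixon's 95% limit for 5 samples. The limit marks about 1 in 20 groups of unrelated values, but these groups share the same libraries. *Ddit3* and *Trib3* were not marked, although day 2 replicate 2 was under every day 0 library. Day 2 replicate 2 stood apart for *Pgam1* at 32.8 CPM, for *Elovl6* at 39.5 CPM and for *Lars2* at 99.2 CPM. Day 2 replicate 3 stood apart for *Abcb10* at 309 CPM and for *Slc25a37* at 60.1 CPM. Day 2 replicate 5 stood apart for *Hebp1* at 91.97 CPM, for *Pgrmc1* at 86.6 CPM and for *Hbb-bt* at 12.4 CPM. Day 0 replicate 1 stood apart for *Orc1* at 88.3 CPM and for *Mcpt2* at 35.9 CPM. Day 0 replicate 3 stood apart for *Slc7a5* at 18.6 CPM, for *Cat* at 103 CPM, for *Slc6a6* at 75.2 CPM and for *Hk2* at 171 CPM. Day 0 replicate 5 stood apart for *Tmem56* at 2.68 CPM, for *Dck* at 23.5 CPM and for *Slc25a13* at 66.4 CPM. Of these 17 values 3 were from day 2 replicate 2, which lay nearer to day 0 than the other 4 day 2 libraries in each case.

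For 73 named genes the change from day 0 to day 2 differed between the genotypes by edgeR's test of the interaction (adjusted p under 0.05, 20 libraries). Values are the Abcb10-null change minus the WT change on the log2 scale. Among stress response, amino acid and tRNA synthetase genes the difference was 3.18 for *Ddit3*, 4.55 for *Trib3*, 3.80 for *Atf3*, 3.57 for *Chac1*, 2.71 for *Nupr1*, 1.52 for *Atf4*, 1.66 for *Cebpg*, 1.44 for *Ppp1r15a*, 1.57 for *Sesn2*, 1.41 for *Asns*, 2.18 for *Gpt2*, 2.87 for *Slc7a11*, 1.86 for *Slc3a2*, 1.13 for *Slc7a5*, 1.34 for *Slc7a7*, 0.68 for *Slc7a1*, 1.74 for *Aldh18a1*, 0.98 for *Cars*, 1.02 for *Iars*, 1.68 for *Rars*, 2.07 for *Herpud1*, 0.80 for *Atf6* and 0.53 for *Eif2s1*. Other genes with a more positive change in Abcb10-null cells gave 1.57 for *Hecw1*, 1.48 for *Pim1*, 1.46 for *Tmem56*, 1.72 for *F2r*, 4.42 for *Fcgr1*, 1.15 for *Lmo4*, 0.81 for *Myc*, 1.22 for *Myb*, 1.31 for *Car1*, 0.48 for *Gins4*, 1.44 for *Ncl*, 0.61 for *Taf1d*, 0.51 for *Bola3*, 0.95 for *Ndufb4*, 0.53 for *Atp5g1*, 1.66 for *mt-Cytb*, 1.03 for *mt-Nd4*, 0.73 for *Psmb10* and 0.80 for *Lcp1*. Among heme, iron, membrane and erythroid genes with a more negative change the difference was -0.80 for *Abcb10*, -1.45 for *Ppox*, -0.43 for *Fech*, -1.34 for *Ank1*, -0.79 for *Epb42*, -0.79 for *Klf1*, -0.96 for *Csf2rb*, -0.89 for *Wipi1*, -1.07 for *Tfrc*, -0.63 for *Slc40a1* and -1.35 for *Bnip3*. For interferon and MHC class I genes it was -3.81 for *Irf7*, -2.64 for *Dhx58*, -1.22 for *Eif2ak2* and -1.46 for *H2-T23*. For metabolic and chaperone genes it was -0.73 for *Hk2*, -1.15 for *Pgam1*, -0.83 for *Pkm*, -0.44 for *Pgd*, -0.65 for *Calr* and -0.81 for *P4ha1*. For the remaining genes it was -3.53 for *Ccl9*, -1.28 for *Fbp2*, -0.89 for *Hdc*, -3.50 for *Plac8*, -1.11 for *Ikzf2*, -0.56 for *Kif20a*, -0.55 for *E2f1*, -3.77 for *Lars2*, -1.79 for *Mcpt2* and -1.39 for *Cdkn1a*. *Lars2* rests on few libraries, since its day 0 values ran from 10.3 to 500.5 CPM.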

How the results depend on the processing

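Day 2 replicates 2 and 5 lay nearer to day 0 than the other day 2 libraries on the leading component, and apart from all of these on the second. Without both 3769 genes rose and 3616 fell. Requiring also an absolute log2 fold change over 0.58 left 1913 higher and 1608 lower, fewer by construction. Under the other 8 alternatives to the processing both counts stayed within 1.5 times of 2984 and 2598, and DESeq2 gave 3175 and 2933. Leaving out 1 library at a time gave 2479 to 3419 higher and 2167 to 2947 lower. In WT the ranges were 3794 to 4429 and 3519 to 4041. The interaction moved more: 1092 (without day 2 replicate 4) to 2376 (without replicate 2) genes more positive in Abcb10-null cells and 1180 to 2384 (without replicate 2) more negative, 2774 and 3005 without replicates 2 and 5, and 896 more positive with total counts; the cause was not tested.

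Samples with the same replicate number did not deviate together (correlation -0.26 to 0.12 over 5 pairs, 1 over 0.1), and no pairing was assumed. With the replicate number as a block 2465 genes rose and 2398 fell in Abcb10-null cells, 3703 and 3728 in WT, and the interaction gave 1150 and 1261.

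Of 147 named genes 133 kept their direction and side of the threshold in every setting. *Cpox* reversed, at -0.11 without day 2 replicates 2 and 5, a change not called in either fit. Over the processing settings 1278 values of named genes kept their call, 10 lost it and 13 gained it. With 1 library left out 1437 kept it, 25 lost it and 8 gained it.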

Other observations

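Some genes outside the lists moved as much as those named by rule, and were chosen after their values were seen. *Txnip*, which binds thioredoxin and curbs glucose uptake, was at 509, 508, 456, 503 and 529.5 CPM in day 0 replicates 1 to 5 and 4977, 555, 2798, 4926 and 2959 CPM in day 2 replicates 1 to 5. Replicate 2 was barely above day 0 and the others far above it (2.69 ± 0.41 (SE), edgeR adjusted p = 0.000197). In WT the change was 1.002, and the interaction was 1.67 (edgeR adjusted p = 0.0158).

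Genes of the cytoskeleton and surface were among those that fell by most. *Vim*, for the filament protein vimentin that red cell precursors lose, went from 171, 165, 148, 174 and 152 CPM to 8.45, 15.9, 3.22, 4.29 and 14.4 CPM (-4.12 ± 0.36 (SE), edgeR adjusted p = 2.59e-06). *Anxa2*, which links membranes to actin, went from 266 to 329 to 3.84 to 61.1 CPM (-3.32 ± 0.47 (SE)) and the mucin gene *Muc13* from 133 to 173 to 2.80 to 10.99 CPM (-4.46 ± 0.29 (SE)). For these 3 genes the interaction was not called, with edgeR adjusted p of 0.384, 0.974 and 0.232.

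The gene of the erythroid microRNA precursor *Mir451a* was at or under the floor in all 5 day 0 libraries and at 1.13, 1.22, 1.61, 0.846 and 1.70 CPM at day 2, at least 8.09-fold higher taking 3 counts per library as the floor (edgeR adjusted p = 1.14e-05). *Mir451b* lies wholly over it on the other strand, and mature microRNAs are not measured by these libraries. Several short RNAs varied between libraries of 1 day. *Bc1*, a small cytoplasmic RNA, was at 9.67 to 26.5 CPM at day 0 and 69.2, 285, 52.3, 40.7 and 379 CPM at day 2. *Rn7s2*, of the signal recognition particle, was at 1648 CPM in day 2 replicate 3 and 16.9 to 78.4 CPM in the other day 2 libraries. *Lars2*, a mitochondrial tRNA synthetase gene, was at 13.4, 10.3, 299, 500.5 and 35.5 CPM at day 0 and 8.93, 99.2, 8.57, 9.01 and 11.9 CPM at day 2 (edgeR adjusted p = 0.0601, and 0.00388 without day 2 replicate 2). It was called in 6 of 19 alternative settings.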
